A study of Mus musculus with 32 samples.

Results

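The genes described here are 25 of the 32285 genes counted in mouse bladder. They were lower at 10 months than at 2 months of age and stood at about the same level in untreated bladders at 26 months. They were selected on measured values, namely CPM, the counts of a gene scaled to the library size of each bladder with trimmed mean of M values (TMM) factors, compared as group means of log2(CPM + 0.1). A gene was kept when its 2-month mean was at least 1 CPM, its 10-month mean was at least 1 lower than its 2-month mean on the log2 scale, and its untreated 26-month mean was within 0.3 of the 10-month mean. Of 14784 genes with a 2-month mean of at least 1 CPM, 131 met the fall by 10 months, and 33 of these stayed within 0.3 thereafter. Of the others, 16 were more than 0.3 lower again at 26 months and 82 were more than 0.3 higher again. Of the 33 genes, 8 were dropped by symbol (Col3a1, Col1a1, Col6a2, Eln, Loxl2, Lox, Kif14 and Igf2bp3), so the 25 are not the whole set with this time course and hold no collagen chain or elastin. Because the 2-month, 10-month and untreated 26-month bladders chose the genes, their differences are given as a description and were not tested.

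All 32 bladders came from female C57BL/6 mice of an aging colony, and each library was 1 whole bladder. The labels name no altered allele in any group. Mice of 3 groups were untreated: 6 were 2 months old (young), 5 were 10 months old (middle-aged) and 6 were 26 months old (old). The gavaged groups, also 26 months old when used, received water (n = 5), vehicle (60% Phosal 50 PG, 30% PEG 400 and 10% ethanol, n = 4) or D + Q (5 mg/kg/day dasatinib with 50 mg/kg/day quercetin, n = 6) on 3 consecutive days each month from 21 months of age, with 5 days of rest before use. These 15 gavaged bladders played no role in choosing the genes.

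Counts per bladder ranged from 15088372 to 52650259, and 4 bladders had under 25000000 (young 3 and 4, water 1 and vehicle 4). No sequencing batch is given in the labels. The defining markers of the organ were present in every bladder, with 6 urothelial markers summing to between 3496 and 4694 CPM and 6 detrusor smooth muscle markers to between 23607 and 37953 CPM. In whole bladders, fewer cells of a type and less RNA per cell cannot be told apart. The labels name separate bladders but not litters or cages, so p-values measure the spread between these bladders.

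During postnatal growth, connective tissue cells lay down collagen fibrils, microfibrils and hyaluronan, and procollagen chains are trimmed by dedicated proteases before they assemble. In the adult organ most of this matrix is long-lived and is made more slowly. Some other genes used in fetal and postnatal tissue, such as perinatal myosin and the type 2 angiotensin receptor, are also known for low levels in adult tissue.

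Sparc, Fbn1 and Adamts2, whose products are a collagen-binding secreted glycoprotein, the main protein of microfibrils and a procollagen protease, were the 3 genes with the most CPM. Whether promoter sequence has a part in their levels was not tested. Their promoters are shown as a description only. They run from 250 bases before to 50 after the start in RefSeq GRCm38.p6 (mm10), 5′ to 3′ on the strand of the gene. Capitals mark the letters GGGCGG on either strand, as in the core of the GC box. The Sparc window is chr11:55420031-55420330 on the minus strand, the Fbn1 window chr2:125506389-125506688 on the minus strand and the Adamts2 window chr11:50601835-50602134 on the plus strand. For Sparc and Fbn1 this start lies inside the gene span of the annotation, which begins further upstream.
Sparc: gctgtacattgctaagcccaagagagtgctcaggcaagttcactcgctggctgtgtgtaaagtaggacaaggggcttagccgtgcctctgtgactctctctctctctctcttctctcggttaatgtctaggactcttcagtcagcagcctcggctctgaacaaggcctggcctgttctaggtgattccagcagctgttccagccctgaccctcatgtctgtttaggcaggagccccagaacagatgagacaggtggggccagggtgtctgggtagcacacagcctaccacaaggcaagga
Fbn1: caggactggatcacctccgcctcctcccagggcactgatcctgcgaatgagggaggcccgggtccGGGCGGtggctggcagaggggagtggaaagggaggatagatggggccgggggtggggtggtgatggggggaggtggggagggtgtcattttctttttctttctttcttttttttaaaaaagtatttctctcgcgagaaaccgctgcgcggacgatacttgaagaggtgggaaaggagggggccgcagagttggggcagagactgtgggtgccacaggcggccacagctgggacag
Adamts2: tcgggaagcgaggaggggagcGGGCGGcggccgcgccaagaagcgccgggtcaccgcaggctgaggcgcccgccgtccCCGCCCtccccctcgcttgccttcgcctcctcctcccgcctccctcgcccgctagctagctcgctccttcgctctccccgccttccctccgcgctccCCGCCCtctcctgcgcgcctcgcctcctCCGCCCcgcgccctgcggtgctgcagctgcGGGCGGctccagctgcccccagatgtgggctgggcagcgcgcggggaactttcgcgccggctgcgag
The GC box letters were 1 of 4 motifs searched on both strands. The others were the TATA box letters TATAAA, the letters CCAAT of the box of that name, and TGANTCA, the letters of an AP-1 site with N for any base. No motif was shared by the 3 windows: the Sparc window held none of the 4, the Fbn1 window held the GC box letters 1 time and the Adamts2 window 5 times. The table had 25 promoters for 22 of the 25 genes and none for Arsi, Aloxe3 or Has2. Of the 25 promoters, 12 held GGGCGG (48%, against 35.7% of all 32851 promoters), 12 held CCAAT (48% against 37.4%), 4 held TATAAA (16% against 13.6%) and 4 held TGANTCA (16% against 7.81%).

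The matrix genes carried most of the reads. In young bladders the 25 genes together took a median of 0.306% of all counts, against 0.135% at 10 months and 0.128% in untreated bladders at 26 months, and Sparc alone made up a median of 78.4% of those counts at 2 months. Per gene length, as TPM, Sparc stood at 2520 ± 966 in young bladders (SD, n = 6) and 1004 ± 120 at 10 months (SD, n = 5), while the next gene, Fbn1, stood at 89.6 ± 40.1 and 35.1 ± 2.88 TPM. The lowest per length at 2 months was Trim71, at 0.517 ± 0.176 TPM (SD, n = 6).

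Sparc (ENSMUSG00000018593, chromosome 11, 55394500 to 55423183 of mm10, minus strand) ranged from 1711 to 4060 CPM in young bladders (median 2452). At 10 months its levels were 1053, 1032, 1055, 1341 and 951 CPM, and at 26 months without treatment they lay between 920 and 1007 CPM (median 955). Every young bladder was above every older one, and the 10-month minus 2-month difference was -1.24 on the log2 scale, which puts 10 months at 42.2% of the 2-month level. In the gavaged bladders Sparc lay between 861 and 1082 CPM (median 966), a range that reached no young bladder. Fbn1 (ENSMUSG00000027204, chromosome 2, 125300594 to 125507993, minus strand) ranged from 174 to 512 CPM in young bladders (median 278), was at 116, 130, 116, 133 and 111 CPM at 10 months and lay between 96.9 and 133 CPM at 26 months without treatment (median 109). The older groups overlapped for Fbn1, and all lay below the lowest young bladder. Its difference from 2 to 10 months was -1.23 on the log2 scale.

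Adamts2 and Adamts14 encode proteases that remove the amino-terminal propeptide of fibrillar procollagens. Adamts2 (ENSMUSG00000036545, chromosome 11, 50602084 to 50807573, plus strand) ranged from 148 to 299 CPM in young bladders (median 204) and was at 92.1, 88.2, 87.8, 103 and 84.0 CPM at 10 months. Untreated bladders at 26 months lay between 76.8 and 101 CPM (median 89.8), overlapping the 10-month bladders. Adamts14 (ENSMUSG00000059901, chromosome 10) had a lower level, with 5.26 to 14.3 CPM at 2 months (median 11.7), and was the member nearest to the threshold of the fall, at -1.004 on the log2 scale. Its lowest young bladder lay within the 10-month range of 4.27 to 6.17 CPM. The third gene of this protease group, Adamts3, had differences of -0.46 from 2 to 10 months and 0.57 from 10 to 26 months (log2), so it took another course.

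Has2 (ENSMUSG00000022367, chromosome 15, 56665627 to 56694539, minus strand), which encodes an enzyme that makes hyaluronan at the cell surface, ranged from 2.69 to 5.83 CPM in young bladders (median 4.37). It stood at 1.70, 1.49, 1.47, 1.67 and 1.54 CPM at 10 months and between 1.31 and 2.61 CPM at 26 months without treatment (median 1.82). The young bladders were above all others, and the spread at 10 months (SD 0.105 CPM) was narrower than at 26 months (SD 0.504 CPM). Of the other hyaluronan synthases, Has3 had a 10-month minus 2-month difference of 0.07, and Has1, under 1 CPM at 2 months, one of -0.72 followed by 1.25 (log2). Tfpi2, which encodes a Kunitz-type protease inhibitor of the matrix, had 1.37 to 4.60 CPM at 2 months (median 2.22) and 0.852, 1.53, 1.05, 1.19 and 0.745 CPM at 10 months, ranges that overlapped. C1qtnf6, a secreted protein of the C1q and TNF-related family, had 26.4 to 47.1 CPM at 2 months and 15.1 to 18.7 CPM at 10 months, without overlap. Itih4, whose liver product is a plasma protein related to hyaluronan-binding inhibitors, had 0.837 to 2.99 CPM at 2 months and 0.393 to 0.938 CPM at 10 months.

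Lists of matrix genes, members of the 25 included, show how far the course was shared. From lists of genes drawn up with earlier results of these data known, 88 matrix glycoprotein and proteoglycan genes had at least 1 CPM at 2 months. The 3 of them lower by 1 or more at 10 months were Sparc, Fbn1 and Has2, all members of the 25. No gene of this list outside the 25 was lower by 1 or more, and none was higher by 1 or more. However, the list did not hold Eln, with a difference of -1.77, or Fbn2, given below, so it does not cover all matrix genes that were lower. The median difference of that list was -0.18, against 0.016 over all 14784 genes, of which 131 were lower by 1 or more. Of 74 genes for matrix proteases and their inhibitors, 3 were lower by 1 or more (Adamts2, Adamts14 and Adamtsl2), with a list median of -0.17. Of these only Adamtsl2 lies outside the 25. Among 7 measured fibrillar collagen chains, a list chosen after the values were seen, the median difference was -0.97 and 3 chains were lower by 1 or more (Col3a1, Col1a1 and Col11a1). Among 9 microfibril genes, also chosen afterwards, Fbn2 had a difference of -2.30 and none of the others was lower by 1 or more, with Mfap5 at -0.76 and Ltbp4 at -0.10.

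**Figure D1:**
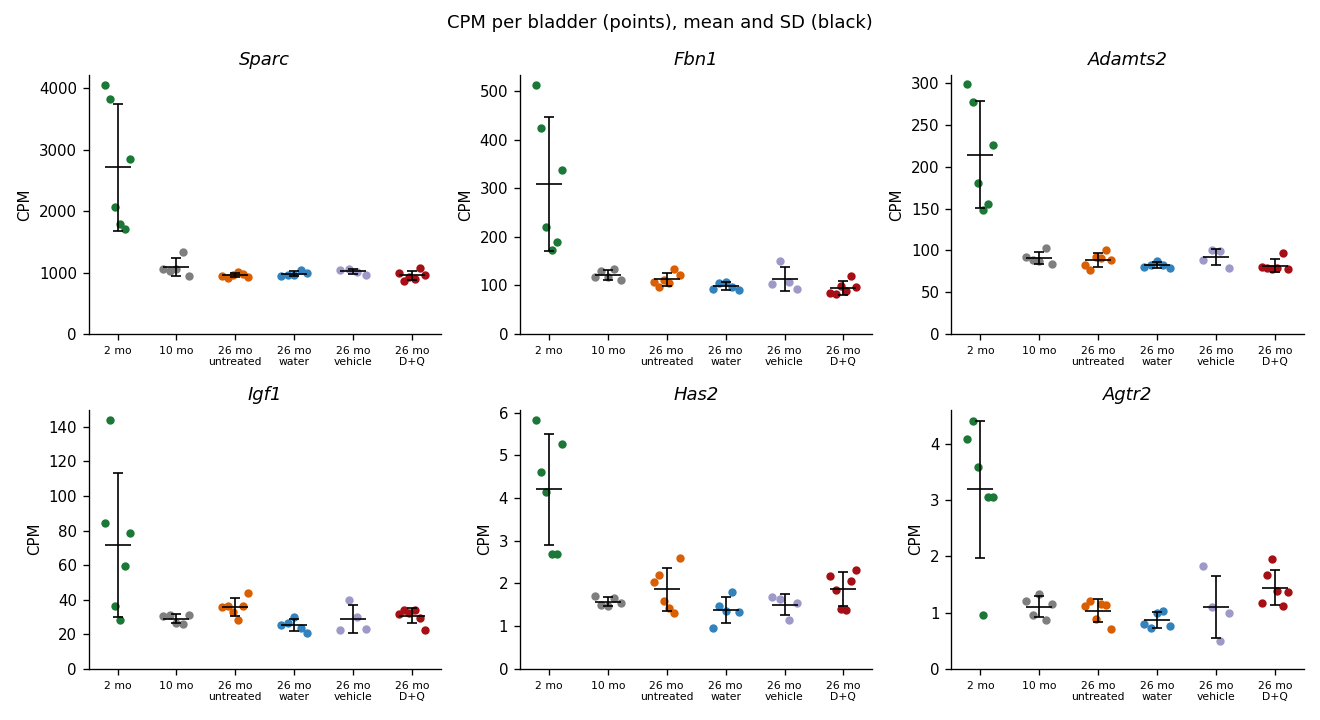
CPM of 6 of the genes in every bladder (y axis from 0, points, by group on the x axis), with the group mean and SD in black. Sparc, Fbn1, Adamts2 and Has2 had every young bladder above every older one, whereas for Igf1 and Agtr2 some young bladders lay among the older ones.

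Igf1 (ENSMUSG00000020053, chromosome 10, 87858265 to 87937042, plus strand), a growth factor of many tissues, ranged from 28.4 to 144 CPM in young bladders (median 69.0), the widest relative range among the 5 genes with the most CPM. It stood at 30.8, 31.0, 26.5, 26.0 and 30.9 CPM at 10 months and between 28.5 and 44.0 CPM at 26 months without treatment (median 36.1). Young 4, at 28.4 CPM, lay within the 10-month range, and the 10-month minus 2-month difference was -1.10 (log2). Igf1 was also the member nearest to the limit of the later stability, at 0.29 above the 10-month mean. Its receptor gene Igf1r had a difference of -0.01 from 2 to 10 months, the growth hormone receptor gene Ghr one of -0.01 and the binding protein gene Igfbp5 one of -0.70, and none of 10 other measured genes of this axis was lower by 1 or more. Of 56 growth factor genes with at least 1 CPM, Igf1 and Ereg were lower by 1 or more, beside 131 of all 14784 genes.

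Agtr2 (ENSMUSG00000068122, chromosome X, 21484544 to 21489164, plus strand) encodes the type 2 angiotensin II receptor, known for high levels in fetal tissue. It stood between 0.956 and 4.40 CPM in young bladders (median 3.32), at 1.21, 0.954, 1.33, 0.877 and 1.16 CPM at 10 months and between 0.704 and 1.21 CPM at 26 months without treatment (median 1.13). Young 4 was the only young bladder among the older ones, and the other 5 were at 3.05 CPM or more. The type 1 receptor gene Agtr1a had a difference of -0.14 over the same interval and Agtr1b, at 1.05 CPM in both groups, one of 0.07. Of the G protein coupled receptor list, 2 genes with at least 1 CPM at 2 months were lower by 1 or more, Agtr2 and Npy6r. In the same list 1 gene was higher by 1 or more. Over all 14784 genes, 131 were lower by 1 or more. The median difference of the list was -0.05, against 0.016 over all genes. Whether the list differed from all genes was not tested.

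Cma1 and Cpa3 encode chymase and carboxypeptidase A3, proteases stored in mast cell granules. Cma1 (ENSMUSG00000022225, chromosome 14, 55941451 to 55944675, minus strand) had 1.91 to 2.76 CPM in young bladders (median 2.40) and 1.11, 0.986, 0.941, 0.933 and 0.882 CPM at 10 months, and lay between 0.588 and 1.47 CPM at 26 months without treatment (median 0.859). It was the member with the smallest spread between young bladders on the log2 scale (SD 0.18), and every young bladder was above every older one. Cpa3 (ENSMUSG00000001865, chromosome 3, 20215620 to 20242181, minus strand) had 0.813 to 3.12 CPM in young bladders (median 1.90) and 0.622, 0.890, 0.969, 0.735 and 0.607 CPM at 10 months. Young 3, at 0.813 CPM or 12 counts, lay within the 10-month range. Other mast cell genes did not share 1 course: the tryptase gene Tpsb2 had a difference of -0.94, Mcpt4 one of -0.61 and Kit, at 41.8 CPM and also used by other cells, one of 0.43. From 10 to 26 months Tpsb2 and Mcpt4 had differences of -0.50 and -0.49, a decline that the 25 genes were chosen not to be.

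Myh8 (ENSMUSG00000055775, chromosome 11, 67277124 to 67308634, plus strand), the perinatal myosin heavy chain of skeletal muscle, had the most negative mean difference, -1.99 on the log2 scale, and the widest spread. Its levels were between 0.675 and 17.6 CPM at 2 months (median 2.48) and 0.131, 0.159, 0.886, 1.22 and 1.71 CPM at 10 months. The groups overlapped, and the lowest 10-month value was 4 counts. Myh2 and Myh1, 2 fast skeletal myosins, had differences of -2.15 and -1.29 from 2 to 10 months and of 1.66 and 1.24 from 10 to 26 months. The sum of 6 skeletal muscle markers was 518 to 1142 CPM at 2 months and 474 to 784 CPM at 10 months, and its part in the Myh8 values was not tested.

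The other genes had varied roles. Bcat1, the cytosolic branched-chain amino acid transaminase, had 7.35 to 19.98 CPM at 2 months (median 10.9) and 4.13, 5.12, 4.54, 5.03 and 3.92 CPM at 10 months, without overlap. Armcx4, an X-linked armadillo repeat gene, had 7.89 to 21.3 CPM at 2 months and 4.45 to 6.53 CPM at 10 months, also without overlap. Arsi, which encodes an arylsulfatase, had 14.1 to 28.6 CPM and 7.89 to 11.6 CPM, and Tmem132c had 2.99 to 4.37 CPM and 1.34 to 2.41 CPM, again with no shared values. Pilra, an inhibitory receptor of myeloid cells, had 2.73 to 13.9 CPM at 2 months against 1.81 to 2.86 CPM at 10 months, so that its lowest young bladder fell inside the later range. Insc, an adaptor in spindle orientation, was at 18.6 CPM in young 1 and at 3.84 to 6.16 CPM in the other young bladders, against 2.702 to 3.99 CPM at 10 months. Trim71, a target of let-7 microRNAs in stem cells, had 0.678 to 1.80 CPM at 2 months and 0.393 to 0.859 CPM at 10 months. Of other genes known as let-7 targets, Igf2bp3 and Igf2bp1 had differences of -1.57 and -1.34, and Igf2bp2 one of -0.12. Lin28b and Hmga2, both under 1 CPM at 2 months and at 10 months, had differences of 1.57 and 0.03.

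Mirg (ENSMUSG00000097391, chromosome 12, 109729764 to 109749460, plus strand) was the 1 long noncoding RNA among 24 protein-coding genes. It is imprinted, lies in the Dlk1 and Dio3 domain, and its span holds 14 microRNA hairpins of the RefSeq table. It had 7.66 to 10.6 CPM at 2 months (median 7.90), and 3.67, 3.53, 4.48, 5.49 and 3.75 CPM at 10 months, without overlap. Its neighbours Meg3 and Rian, transcribed from the same strand of the domain, had differences of -0.57 and -0.77, and Dlk1 one of -0.36. Fstl4, Aloxe3, Lrrc10b and Fbxw18 completed the 25, with 2-month means of 1.92, 7.07, 3.35 and 1.01 CPM and 10-month minus 2-month differences of -1.62, -1.06, -1.04 and -1.03 (log2).

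**Figure D2:**
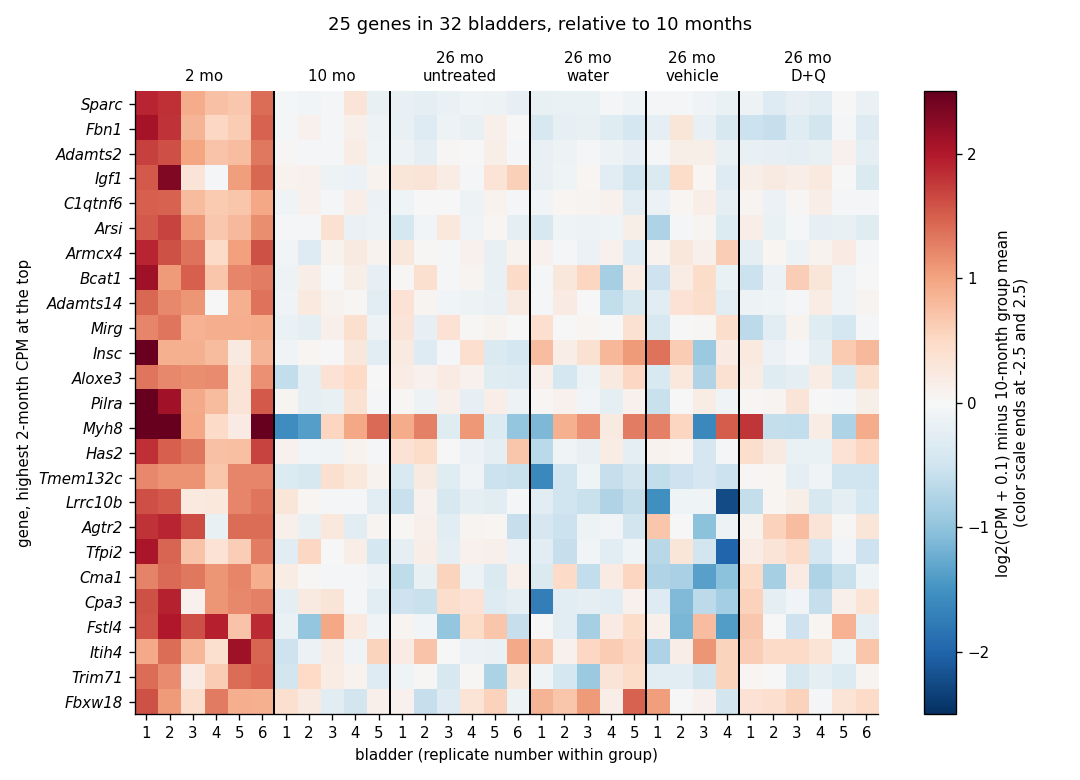
Each row is 1 of the 25 genes, each column 1 bladder, and the color is log2(CPM + 0.1) minus the 10-month group mean of that gene. The 2-month columns are mostly red and paler in young 3, 4 and 5, and the 26-month columns are mostly near white, with Myh8, Insc, Lrrc10b and the mast cell genes as the more uneven rows.

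Transcripts of these genes were lowered by 10 months and were not lost. The 10-month level was 25.1% (Myh8) to 49.9% (Adamts14) of the 2-month level, from the means of log2 values. No bladder at 10 months was at or below 3 counts, taken as the floor of detection, for any of the 25 genes, and in all 32 bladders only Cpa3 (water 1) and Fstl4 (vehicle 4) had such a value. The median 10-month minus 2-month difference was -1.19 and that of untreated 26 months minus 10 months was -0.04, both fixed by the choice of genes. Every young bladder was above every 10-month bladder for 12 of the 25 genes, beside 3% of the 14784 genes with a 2-month mean of at least 1 CPM. Without the 4 bladders under 25000000 counts, an exclusion chosen after the data were seen, this held for 20 of the 25, beside 8.57% of all genes with the same bladders left out. In both counts a larger share than over all genes was built into the choice, which used these 2-month and 10-month bladders.

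The young bladders themselves were uneven. The median over the 25 genes of the log2 distance above the 10-month mean was 1.60, 1.49, 0.95, 0.69, 0.90 and 1.35 in young 1 to 6. Young 1, 2 and 6 were among the 3 highest young bladders for 23, 22 and 20 of the 25 genes, and young 4 was the lowest for 13. The SD between young bladders on the log2 scale exceeded 0.3 for 22 of the 25 genes, against 8 at 10 months and 9 in untreated bladders at 26 months. The median SD was 0.52 over these genes and 0.16 over all 14784 genes in young bladders, and 0.22 and 0.097 at 10 months.

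Other measures differed among the young bladders in a like order. Summed levels of 6 markers of dividing cells were 90.9, 65.4, 27.9, 25.9, 23.9 and 41.3 CPM in young 1 to 6. Col1a1 was at 8192, 7477, 4831, 3983, 3954 and 6024 CPM and Eln at 807, 394, 126, 121, 117 and 351 CPM in the same bladders, so that young 1, 2 and 6 were again highest. These bladders were also highest for summed macrophage markers (681, 978, 553, 568, 553 and 680 CPM in young 1 to 6). The same held for skeletal muscle markers (1142, 931, 861, 716, 518 and 901 CPM). Detrusor markers had another order, at 37953, 30293, 32786, 31640, 23699 and 33514 CPM. Depth was lowest in young 3 and 4, at 15088372 and 16881598 counts, while young 5, with levels of the 25 genes like theirs, had 33614273 counts. Fibroblast markers other than collagens (Pdgfra, Dcn, Lum and Dpt) summed to 3289, 3574, 3123, 3021, 3505 and 3665 CPM. Their sum at 10 months was 2883 to 3315 CPM, overlapping the young range of 3021 to 3665 CPM, and most of it was Dcn. Singly, the 10-month minus 2-month differences were -0.07 for Dcn, -0.08 for Pdgfra, -0.44 for Lum and -0.47 for Dpt (log2). By contrast, all 6 fibroblast markers, Col1a1 and Col1a2 included, summed to 11052 to 19121 CPM at 2 months and 7798 to 9718 CPM at 10 months. The part of cell division, cell number or depth in the 25 genes was not tested.

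**Figure D3:**
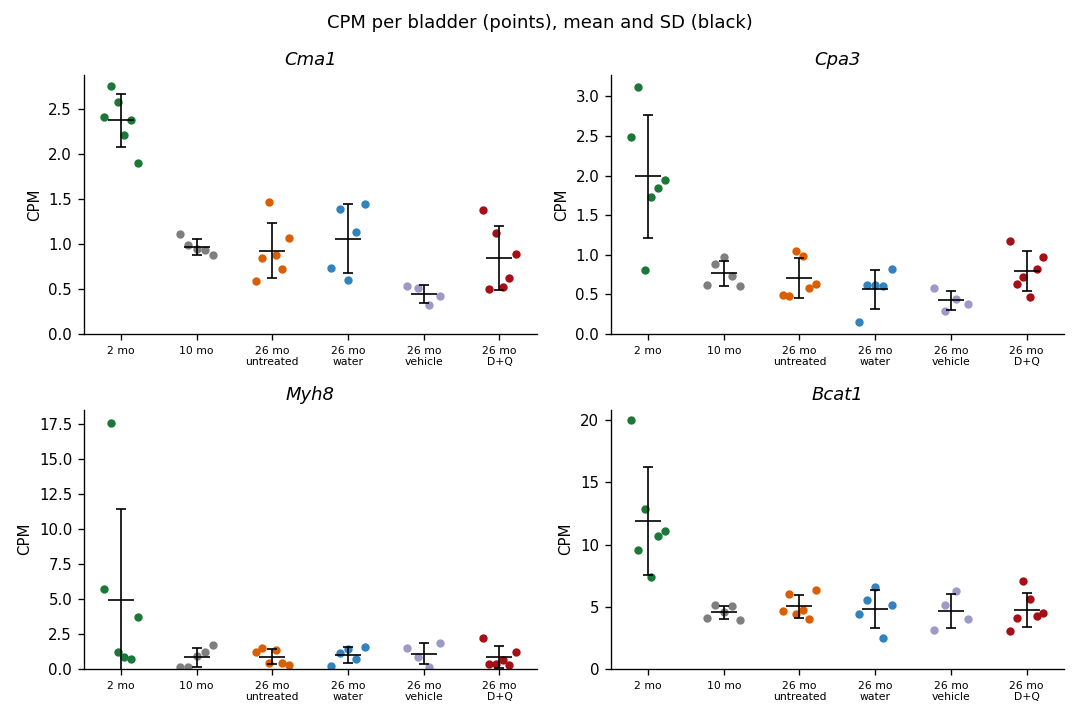
CPM of Cma1, Cpa3, Myh8 and Bcat1 in every bladder (y axis from 0, points, by group on the x axis), with the group mean and SD in black. The 4 vehicle bladders were the lowest group mean for both mast cell proteases, and 1 young bladder at 17.6 CPM sets most of the Myh8 mean at 2 months.

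The 15 gavaged bladders show where the levels stood in mice that had no part in the choice. For all 25 genes the mean of the gavaged bladders was below the 2-month mean, with differences of -0.56 (Fbxw18) to -1.70 (Fstl4) on the log2 scale (median -1.31, beside 0.0018 over all genes), and 22 of 25 were lower by 1 or more, beside 0.913% of all genes. The 2-month bladders had entered the choice, so this and the next counts are a description. For 12 of the 25 genes every young bladder was above every gavaged bladder, beside 2.59% of all genes, and for 10 of those 12 every young bladder was also above every 10-month bladder. Without the 4 shallow bladders the count was 19, beside 6.21% of all genes.

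Against 10 months, the median difference of the gavaged bladders was -0.047 (log2) over the 25 genes and -0.021 over all genes. The gavaged mean stayed within 0.3 of the 10-month mean for 17 of the 25, beside 87.9% of all genes. By group these counts were 16 for water, beside 85.5% of all genes, 17 for vehicle, beside 85.8%, and 21 for D + Q, beside 88.4%. Each of these counts is a smaller share of the 25 genes than of all genes, a difference that was not tested, and the median SD between bladders was 0.23 for the 25 genes and 0.12 for all genes in the water group, 0.38 and 0.14 in the vehicle group and 0.27 and 0.12 in the D + Q group. The 3 genes highest above 10 months in the gavaged bladders were Fbxw18 (0.47), Itih4 (0.40) and Insc (0.39), and the 3 lowest were Lrrc10b (-0.54), Tmem132c (-0.44) and Cma1 (-0.35).

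**Figure D4:**
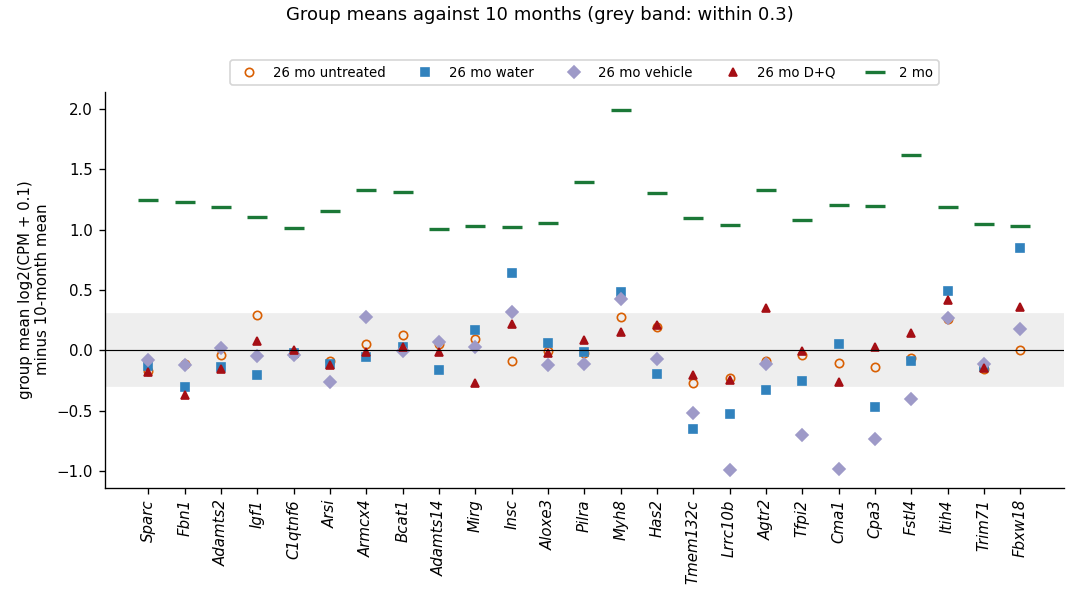
Group means of log2(CPM + 0.1) minus the 10-month mean for each of the 25 genes (x axis, by 2-month CPM), with 2 months as green bars and the 4 groups at 26 months as symbols. The grey band is the limit of 0.3 that chose the untreated group, and the gavaged groups leave it for genes such as Insc, Tmem132c, Lrrc10b and Cma1.

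Fbxw18 was at 0.841, 0.747, 0.993, 0.487 and 1.36 CPM in the water bladders, against 0.590, 0.509, 0.332, 0.283 and 0.469 CPM at 10 months. Its water range reached that of the young bladders, 0.610 to 1.49 CPM, at 16 to 48 counts per bladder. Insc was at 5.68, 3.66, 4.28, 5.86 and 6.94 CPM in the water bladders and 2.702 to 3.99 CPM at 10 months. Lrrc10b was at 0.439, 1.36, 1.37 and 0.235 CPM in the vehicle bladders, of which the lowest rested on 5 counts. Over the pooled gavaged bladders, the genes with more than 20 CPM at 2 months had differences from 10 months between -0.28 (Fbn1) and -0.02 (C1qtnf6). By group, Fbn1 was outside the limit of 0.3 in the water bladders (-0.305) and in the D + Q bladders (-0.37).

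The gavaged groups were compared with each other to ask whether D + Q or its vehicle moved these genes, with edgeR's quasi-likelihood test over all genes and Benjamini-Hochberg adjustment. All 25 genes were tested in each comparison and 0 of them passed an adjusted p of 0.05, beside 0% of 17267 genes for D + Q against vehicle, 0% of 17161 for D + Q against water and 0% of 17294 for vehicle against water. At an unadjusted p under 0.05 there were 3, 5 and 3 of the 25 genes, and 722, 1342 and 322 genes in all. DESeq2 called 11, 69 and 0 genes in all and 0 of the 25 in each comparison. A p that misses the threshold does not show that the groups had equal levels.

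For Sparc, Fbn1 and Adamts2, the genes with the most CPM, the estimates lay between -0.25 and 0.21 over the 3 comparisons. Between D + Q and vehicle the log2 fold change of Sparc was -0.09 ± 0.06 (SE) and that of Fbn1 -0.25 ± 0.14, while between D + Q and water they were -0.03 ± 0.06 and -0.05 ± 0.09. Adamts2 differed between D + Q and water by 0.00 ± 0.06 (log2) and between vehicle and water by 0.17 ± 0.07 (edgeR adjusted p = 1). Myh8 had the widest error, with an SE of 0.69 between D + Q and vehicle.

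The mast cell proteases had the largest estimates in which vehicle took part. Cma1 was at 0.536, 0.508, 0.319 and 0.423 CPM in the vehicle bladders and at 0.736, 1.39, 0.596, 1.14 and 1.45 CPM in the water bladders, so that the groups did not overlap. Its log2 fold change between vehicle and water was -1.25 ± 0.32 (edgeR adjusted p = 1). In the D + Q bladders it lay between 0.504 and 1.38 CPM (median 0.759), a log2 fold change of 0.91 ± 0.34 against vehicle (edgeR adjusted p = 0.994). Cpa3 was at 0.585, 0.294, 0.441 and 0.376 CPM in the vehicle bladders and between 0.471 and 1.17 CPM (median 0.772) in the D + Q bladders, with a log2 fold change of 0.91 ± 0.30 (edgeR adjusted p = 0.994). The values of Cma1 in vehicle rest on 9 to 22 counts per bladder.

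Agtr2 had the smallest p among the 25 genes between D + Q and water. It was at 0.789, 0.721, 0.993, 1.03 and 0.767 CPM in the water bladders and between 1.12 and 1.94 CPM in the D + Q bladders (median 1.38), with no overlap and a log2 fold change of 0.74 ± 0.18 (edgeR adjusted p = 0.337). The vehicle bladders spanned both groups, at 1.83, 1.10, 0.490 and 0.986 CPM, and D + Q against vehicle gave 0.39 ± 0.31. The log2 fold change between D + Q and water was -0.43 ± 0.15 for Mirg (edgeR adjusted p = 0.536) and 0.29 ± 0.12 for Igf1 (edgeR adjusted p = 0.584). Armcx4 was at 5.97, 6.80, 6.15 and 8.64 CPM in the vehicle bladders, and its log2 fold change was 0.36 ± 0.15 between vehicle and water and -0.30 ± 0.13 between D + Q and vehicle (edgeR adjusted p = 1 and 0.994).

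**Figure D5:**
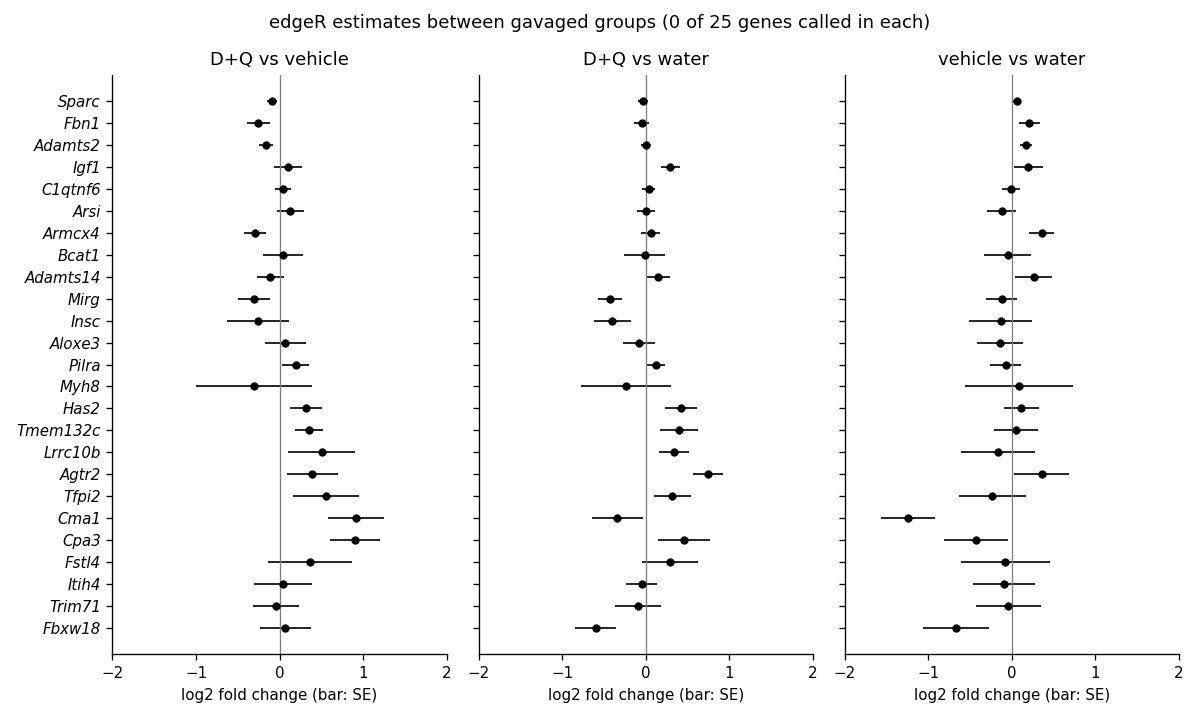
Log2 fold changes from edgeR (x axis, points) of the 25 genes (y axis, highest 2-month CPM at the top) in 3 comparisons of gavaged groups. Bars are the SE derived from the F statistic of the edgeR test. In each comparison 0 of 25 genes passed, and the widest bar in each is that of Myh8.

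Within the 15 gavaged bladders, which the choice did not use, Sparc, Fbn1 and Adamts2 varied together on the log2 scale. The Pearson r of Fbn1 with Adamts2 was 0.82 (two-sided permutation p = 0.00026, adjusted over 5 pairs 0.0013), with a Spearman rho of 0.71 (permutation p = 0.0041, adjusted 0.010). For Sparc with Adamts2 r was 0.70 (permutation p = 0.0025, adjusted 0.0061) and rho 0.75 (permutation p = 0.0020, adjusted 0.0098). For Sparc with Fbn1 r was 0.67 (permutation p = 0.0038, adjusted 0.0063) and rho 0.59 (permutation p = 0.022, adjusted 0.038). Without the 2 bladders farthest from the median of the first gene, these r were 0.66, 0.64 and 0.54, and with the group means removed 0.77, 0.63 and 0.58. The permutations ran over all 15 bladders without regard to group, and the r with group means removed were not tested.

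Adamts2 and Adamts14 had an r of 0.45 (permutation p = 0.087, adjusted 0.087) and a rho of 0.27 (permutation p = 0.33, adjusted 0.33), and without vehicle 2 and 3 the r was -0.065, so the relation rests on those bladders. Cma1 and Cpa3 had an r of 0.51 (permutation p = 0.047, adjusted 0.059) and a rho of 0.56 (permutation p = 0.032, adjusted 0.040), with an r of 0.50 without water 2 and 5 and of 0.54 with the group means removed. The pairs were chosen by shared role with earlier results known. No other pairs of genes were correlated, so how far other genes of these bladders vary together is not known.

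The members just inside and just outside each limit had similar values. Adamts14, C1qtnf6 and Insc were just inside the limit of the fall, at -1.004, -1.009 and -1.022, and Kdelr3, CT010496.1 and Tnnt3 just outside, each at -0.98. Igf1, Myh8 and Tmem132c were just inside the limit of stability, at distances of 0.29, 0.28 and 0.27, and Sfmbt2, Cgref1 and C430049B03Rik just outside, at distances of 0.31, 0.31 and 0.32. Fbxw18, Trim71 and Itih4 were just inside the limit of level, at 1.01, 1.37 and 1.64 CPM, and Sox11, E230016K23Rik and Asxl3 just outside, at 0.873, 0.780 and 0.765 CPM.

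The 25 genes lie on 14 chromosomes, 5 of them on chromosome 11, and 10 overlap a gene on the other strand, such as Has2 with Has2os, Igf1 with Igf1os and Pilra with Zcwpw1. The strand setting of the counting is not given in the sources used here, so reads of these partners cannot be told apart. The dropped symbols included many cell division genes, among them Kif14, which met the fall and the stability (-1.08, then 0.08). Of 96 other cell division genes with at least 1 CPM at 2 months, 23 were lower by 1 or more at 10 months, and none of those 23 stayed within 0.3 thereafter. Of 45 muscle contractile genes 5 were lower by 1 or more, with Myh8 as the 1 that stayed. Of 270 immune genes 4 were lower and 7 higher by 1 or more, with Cma1 and Cpa3 as the 2 that stayed. Over all 14784 genes with at least 1 CPM at 2 months, 131 were lower by 1 or more, and 33 of these stayed within 0.3. Differences of the lists from these shares were not tested.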

How the data were processed

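RNA was sequenced from 32 whole bladders as stranded total RNA libraries. STAR 2.7.3 (mm10) and featureCounts of Subread gave the raw counts of 32285 genes that the authors deposited, beside an exon length for each gene, the other quantity used. The second table they deposited as TPM holds log2 values whose linear values sum to 100000 per bladder, and 10 times these are TPM. Totals were 15088372 to 52650259 counts. The floor of 3 counts covers counting error only.

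CPM used TMM factors of edgeR 4.0.16 in R 4.3.3. Gavaged groups were compared in pairs with edgeR's quasi-likelihood test after filterByExpr, with an adjusted p under 0.05. The SE of a log2 fold change was its absolute value divided by the square root of the F statistic of that test. Alternatives were DESeq2 1.42.0, edgeR's likelihood ratio test, other filters, all groups in a single fit, a replicate block, other pseudocounts and each bladder left out. Code was tested on simulated data. Correlations used 100000 permutations (scipy 1.17.1). Of the genes counted, 32158 matched a symbol. The promoters come from RefSeq GRCm38.p6 and positions from the mm10 annotation.

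The genes and lists were chosen with earlier results of these data known. Named genes were those with the highest 2-month CPM, the most negative 10-month difference, the 3 highest per list, those nearest each limit, the smallest p per comparison and the extremes in gavaged bladders, which together name all 25. Untreated groups and untested contrasts were described only.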

Additional observations from a re-analysis of the deposited data

Results flagged for a closer look

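Among 150 sets of one gene in one group, 8 had a single bladder far from the rest by Dixon's ratio, and chance gives about 1 in 20. At 2 months these were Insc in young 1 (18.6 CPM, the next at 6.16), Aloxe3 in young 5 (4.17, the next at 7.32), Fstl4 in young 5 (0.939, the next at 1.78), Tmem132c in young 4 (2.99, the next at 4.03) and Agtr2 in young 4 (0.956, the next at 3.05). At 10 months Arsi stood at 11.6 CPM in middle-aged 3, with the next at 8.52. In the gavaged bladders Adamts2 stood at 97.4 CPM in D + Q 5, with the next at 80.4, and Cpa3 at 0.158 CPM in water 1, with the next at 0.608. Young 4 and water 1 are 2 of the 4 bladders with under 25000000 counts.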

How the results depend on the processing

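The number of genes that met the rule moved most. It was 25 as described, 11 with a pseudocount of 1 (9 of them among the 25) and 50 without the 4 bladders under 25000000 counts, an alternative added after the data were seen, which kept all 25. With single bladders left out it ranged from 18 (without young 1) to 39 (without young 4, with 24 of the 25 among them). A total of 11 genes stayed in every time 1 of the 17 bladders was left out, and Sparc, Fbn1, Adamts2, Arsi, Armcx4, Bcat1 and Pilra met the rule in all 24 alternatives. The median difference of gavaged bladders from 10 months was -0.047 and lay between -0.060 and -0.026 in its 19 alternatives. The count of the 25 genes called between gavaged groups was 0 in every alternative, from 0 to 0 with single bladders left out. With at least 10 counts required in every bladder, 18 of the 25 were tested for D + Q against vehicle. The numbers tested were 21 for D + Q against water and 17 for vehicle against water. The 9 fold changes with the smallest p values kept their direction in every alternative that tested them. Those of Cma1 and Cpa3 were not tested with at least 10 counts in every bladder. Over all genes, D + Q against water gave 3 calls without water 3. DESeq2 and the likelihood ratio test gave 11 and 3 calls for D + Q against vehicle, 69 and 27 for D + Q against water and 0 and 0 for vehicle against water. With the replicate number as a block, 0 of the 25 genes were called in each comparison, and 0, 1 and 0 genes in all. Correlations of same-numbered bladders were -0.34 to 0.26. For some vehicle and water bladders the replicate number differs from the number in the header of their counts. Pairing by the header numbers was not tested, so whether bladders were paired cannot be decided here. Genes near 1 CPM rest on few counts per bladder.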
